A study of Mus musculus with 48 samples.

Results

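The presynaptic vesicle and release genes described here were chosen by gene symbol and followed through developing mouse cortex: Syn1, Syn2, Syp, Vamp2, Snap25, Stx1a, Syt1, Rims1, Slc17a7 and Slc17a6. They are 10 of 55401 genes listed at P21 and of 54100 genes listed in the table of 4 ages. The groups compared were mG-cKO cortex at P1, P7, P14, P21 and P45, mG-cKO-RTI cortex, and mG-cKD and mG-cKD-RTI cortex at P21, and the untreated Ctrl cortex of the same age was the control. Sample titles at P21 call the mG-cKO, mG-cKD and Ctrl genotypes MT, Het and WT. For mG-cKO and Ctrl at P1, P7, P14 and P45 the titles use M and W. There were 3 libraries per group at P1, P21 and P45 and 2 per group at P7 and P14, where replicate 3 of each genotype, listed in the labels, was not analysed here. The labels spell out neither mG nor RTI and name no altered gene, driver, strain or dose, so loss of the target could not be checked. Nothing in the labels says that replicates come from separate animals. The p-values therefore reflect variation among the libraries, which may be technical. A further table compares cortex labelled VPA with cortex labelled CT at P1. None of the 10 members has a row in the form of it used here, so VPA against CT was not analysed here for them.

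A presynaptic terminal stores transmitter in vesicles, docks them at a specialised membrane called the active zone, and fuses them with that membrane when calcium enters. Synapsins (Syn1, Syn2) tether vesicles in a reserve near the terminal's cytoskeleton, and Syp encodes synaptophysin, an abundant protein of the vesicle membrane. Vamp2 on the vesicle and Snap25 and Stx1a on the plasma membrane are the SNARE proteins whose zippering drives fusion, Syt1 is the calcium sensor that triggers it, and Rims1 is a scaffold that organises the active zone. Slc17a7 and Slc17a6 encode VGLUT1 and VGLUT2, which fill vesicles with glutamate. In rodents VGLUT1 is the main form of mature cortical neurons, and VGLUT2 is typical of thalamic inputs and of young cortex.

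By the GENCODE M21 annotation of GRCm38/mm10 all 10 are protein-coding genes, and values are for the whole gene. Among the vesicle proteins, Syn1 lies at chrX:20860511-20921004 (minus strand), Syn2 at chr6:115134902-115282006 (plus) and Syp at chrX:7638471-7653256 (plus). Of the fusion machinery, Vamp2 lies at chr11:69088490-69092384 (plus), Snap25 at chr2:136713453-136782428 (plus), Stx1a at chr5:135023482-135051100 (plus) and Syt1 at chr10:108497650-109010982 (minus). Rims1 lies at chr1:22286251-22805994 (minus). Both transporter genes are on chromosome 7, Slc17a7 at chr7:45163949-45176142 and Slc17a6 at chr7:51622006-51671119 (both plus).

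The RefSeq table of promoters (GRCm38.p6) held 8 of the 10 members, with 11 start sites. The 250 bases before the start are shown for the pair of glutamate transporters, whose levels took different courses with age, for Syn1, which rose with age, and for Stx1a, which was lower in mG-cKO cortex at P14 and P45 in the fit with a term for the sets of libraries. Capitals mark the searched motifs on either strand: the GC box (GGGCGG), the cAMP response element (TGACGTCA), the left part of the RE1 element (TTCAGCACC) and the TATA box (TATAAA).
Slc17a7, chr7:45163671-45163920, plus strand: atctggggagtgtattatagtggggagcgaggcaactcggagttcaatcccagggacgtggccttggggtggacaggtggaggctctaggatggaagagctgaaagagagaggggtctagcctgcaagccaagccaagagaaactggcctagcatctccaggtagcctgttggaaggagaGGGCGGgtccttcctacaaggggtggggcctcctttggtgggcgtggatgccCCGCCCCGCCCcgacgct
Slc17a6, chr7:51621580-51621829, plus strand: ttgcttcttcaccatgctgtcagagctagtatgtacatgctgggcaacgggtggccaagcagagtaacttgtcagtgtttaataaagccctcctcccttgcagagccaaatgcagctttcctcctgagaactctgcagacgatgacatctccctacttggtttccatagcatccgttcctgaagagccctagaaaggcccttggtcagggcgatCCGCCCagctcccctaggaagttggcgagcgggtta
Syn1, chrX:20920919-20921168, minus strand: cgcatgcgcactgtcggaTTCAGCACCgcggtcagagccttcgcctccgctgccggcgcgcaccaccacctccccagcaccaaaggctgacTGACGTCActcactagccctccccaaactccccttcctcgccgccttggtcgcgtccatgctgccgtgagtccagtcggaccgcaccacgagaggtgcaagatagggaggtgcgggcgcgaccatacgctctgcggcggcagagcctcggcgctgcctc
Stx1a, chr5:135023232-135023481, plus strand: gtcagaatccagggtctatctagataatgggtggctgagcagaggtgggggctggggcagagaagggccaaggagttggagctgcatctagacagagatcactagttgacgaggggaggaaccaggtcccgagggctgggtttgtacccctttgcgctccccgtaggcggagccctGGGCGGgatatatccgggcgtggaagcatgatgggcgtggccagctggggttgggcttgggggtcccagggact

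A GC box stood before 7 of the 11 start sites, 1 start in each of 7 members that include both transporters and Stx1a, against 32.7% of all 32851 promoters over the same 250 bases. Slc17a7 held 3, the last 2 of which overlap by their end base, and Slc17a6 and Stx1a held 1 each. The Syn1 window held none, but it held the RE1 motif 232 bases and the cAMP response element 159 bases before the start, found in 0.301% and 1.55% of all promoters. No member window held TATAAA, which 12.4% of all promoters did. The windows of Syn1 and Rims1 were 68.0% G and C, that of Slc17a6 was 53.2%, and the median promoter was 52.4%. These matches describe the letters of the windows.

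Levels are given as FPKM, which divides fragments by gene length and by library size, so that genes can be compared with each other. The libraries fell into sets that the labels do not name. In the age table, FPKM times gene length came in whole reads for 98.6% to 99.0% of low values in replicates 1 and 2 of every age. This held for only 16.8% to 17.9% of low values in replicate 3 at P1 and P45, whose depth is unknown. Replicates 1 and 2 at P1, P7 and P14 (set 1) implied library sizes of 18.6 to 30.9 in units of 1000000 reads. Replicates 1 and 2 at P45 (set 2) implied 17.5 to 19.9 on the same scale and held Rn7sk, an RNA without a poly(A) tail, at 18351 to 21130 FPKM, against 0.871 to 5.75 FPKM in set 1. The replicates 3 (set 3) summed to 364520 to 381834 FPKM, against 238106 to 258920 in the other 16 libraries. The sets differed in the members too: at P45, Snap25 and Syp were 4.17 and 4.71 times as high in Ctrl replicate 3 as in the mean of Ctrl replicates 1 and 2, while Slc17a6 was 0.96 times as high. Levels in the age table were therefore compared between genotypes within sets, and between ages within sets where 1 set held both ages. Each test of that table was run both without and with the set as a term. At P21 all 15 libraries lacked whole read steps, and no such term was fitted. Xist exceeded Ddx3y, so that the library was female by these transcripts, in all P7 and P14 libraries and in none at P45. Libraries of both kinds were present at P1 and P21. Sex and age therefore cannot be told apart between P14 and P45. The mix of sexes also differed between P1 and P7 and between P1 and P45, and its part in those steps was not tested.

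**Figure D1:**
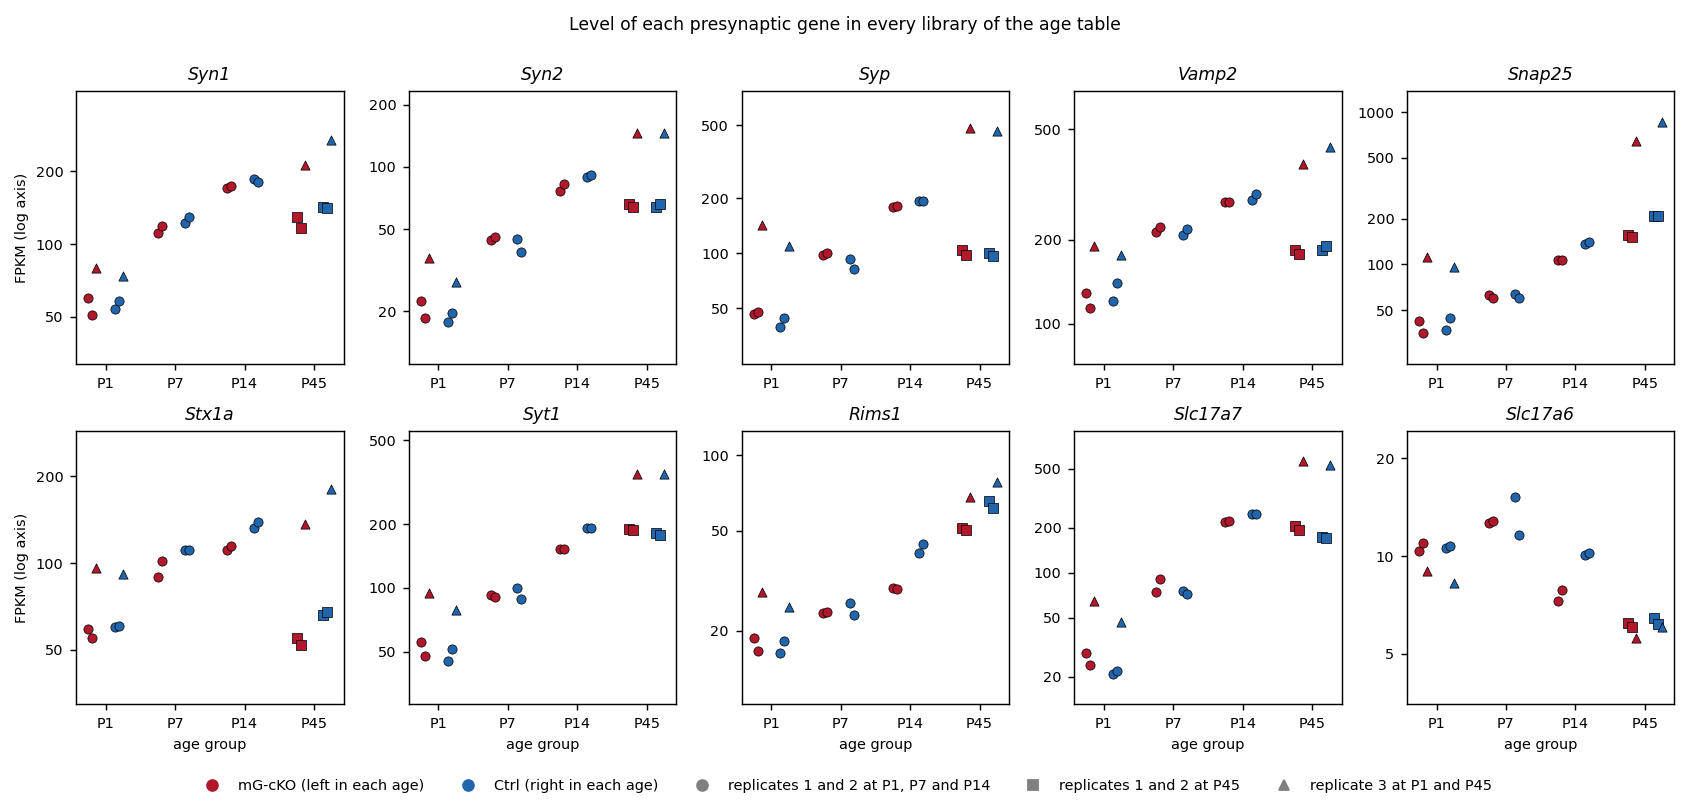
FPKM (log axis) of each gene in each of the 20 libraries of the age table, mG-cKO left of Ctrl at each age, with the marker showing the set of libraries. Within set 1 (circles) 9 genes climb from P1 to P14, and the triangles of replicate 3 stand above the squares of the same P45 group for every gene but Slc17a6.

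Of the 10 genes 9 climbed in cortex between P1 and P14, and Slc17a6 took a different course. In the 2 Ctrl libraries of each age in set 1, Slc17a7 stood at 20.98 and 21.96 FPKM at P1, 75.6 and 71.5 FPKM at P7, and 246.4 and 247.4 FPKM at P14, an 11.5-fold climb in which no ages overlapped. Slc17a6 stood at 10.6 and 10.8 FPKM at P1, 15.2 and 11.6 FPKM at P7, and 10.1 and 10.2 FPKM at P14, highest at P7. The other 8 stood 2.20 times (Vamp2) to 4.86 times (Syn2) as high at P14 as at P1.

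The 3 vesicle protein genes climbed at both steps. Syn1 had 54.0 and 58.2 FPKM at P1, 122.1 and 129.7 at P7, and 185.9 and 181.5 at P14. Syn2 had 17.7 and 19.6 FPKM at P1, 44.9 and 38.6 at P7, and 89.3 and 91.7 at P14. Syp had 39.4 and 44.1 FPKM at P1, 92.6 and 81.5 at P7, and 192.6 and 193.0 at P14. For all 3 the Ctrl libraries of the 3 ages did not overlap.

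The SNARE genes differed in timing. Stx1a had 60.03 and 60.48 FPKM at P1, 111.0 and 110.9 at P7, and 132.0 and 138.8 at P14, so the larger step came before P7. Snap25 had 37.1 and 44.2 FPKM at P1, 64.1 and 59.8 at P7, and 136.2 and 139.4 at P14, with the larger step in the second week. Vamp2 was the highest member at all 3 ages, with 120.1 and 139.4 FPKM at P1, 208.5 and 218.9 at P7, and 277.4 and 292.6 at P14. The calcium sensor Syt1 had 45.03 and 51.4, 99.9 and 89.0, then 191.3 and 191.6 FPKM over the same ages. Rims1 had 16.3 and 18.1, 25.8 and 23.1, then 40.8 and 44.2 FPKM.

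The steps from P1 to P7 and from P7 to P14 were tested in Ctrl with limma over 19733 genes with Benjamini-Hochberg adjustment. Without a term for the sets 0 members passed an adjusted p of 0.05 in either step, with 4 and 5 members at an unadjusted p under 0.05. That fit called 6.24% and 8.57% of all genes. With the set as a term, which compares set 1 with itself, all 10 members were higher at P7 than at P1, where 41.3% of all genes were called. At P14 against P7, 9 members rose and Slc17a6 fell, where 43.6% of all genes were called. The largest was Slc17a7, with log2 differences of 1.76 (SE 0.09) at P7 against P1 and 1.73 (SE 0.09) at P14 against P7. Slc17a6 differed by 0.31 (SE 0.08, adjusted p = 0.0084) and then by -0.36 (SE 0.09, adjusted p = 0.0040). Leaving out any one library kept 9 or 10 calls in the first step and 10 in the second.

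Of P1 and P45, only replicate 3 holds both ages in 1 set. In that set Slc17a7 was at 526.1 FPKM in P45 Ctrl and 46.9 FPKM in P1 Ctrl, and Snap25 at 863.2 FPKM in P45 Ctrl and 96.7 FPKM in P1 Ctrl. Slc17a6 was at 6.05 FPKM in P45 Ctrl and 8.26 FPKM in P1 Ctrl. In this set Slc17a7 was 11.2 times and Snap25 8.93 times as high at P45 as at P1, where set 1 gave 11.5 times and 3.39 times for P14 over P1. Syp was 4.22 times as high at P45 in set 3 and 4.62 times at P14 in set 1. Without a set term, and over all 3 libraries per group, 7 of 10 members passed in Ctrl, where 36.6% of all genes were called. Of these 6 rose, from Syn1 (log2 difference 1.51, SE 0.26, adjusted p = 0.00045) to Slc17a7 (3.12, SE 0.51, adjusted p = 0.00022), and Slc17a6 fell (-0.58, SE 0.12, adjusted p = 0.0012). The other 3 did not pass: Syp at 1.503 (adjusted p = 0.094), Vamp2 at 0.78 (adjusted p = 0.074) and Stx1a at 0.42 (adjusted p = 0.42). With the replicate number as a block these 3 also passed in Ctrl (adjusted p = 2.9e-05, 0.00080 and 0.041), where 67.9% of all genes were called. For replicates 1 and 2 this block joins P1 libraries of set 1 with P45 libraries of set 2, so it leaves the set difference in. For Stx1a in Ctrl the log2 difference of P45 minus P1 was 0.15 in replicates 1 and 2 and 0.97 in replicate 3. In mG-cKO cortex the same 7 genes passed, where 34.0% of all genes were called, with Slc17a7 at 2.95 (SE 0.51) and Slc17a6 at -0.67 (SE 0.12). With the block, under which 66.3% of all genes were called, Syp and Vamp2 passed there too, and Stx1a did not (0.11, adjusted p = 0.58). All 10 passed in both genotypes with the set as a term, 9 higher and Slc17a6 lower, where 56.7% and 56.0% of all genes were called. With that term the step from P1 to P45 rests on set 3, with 1 library per age and genotype. The genotypes share the set terms, so their results are not independent. For Stx1a in mG-cKO the log2 difference of P45 minus P1 was -0.09 in replicates 1 and 2 and 0.50 in replicate 3.

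P45 against P14 in Ctrl compares set 1 with sets 2 and 3 and so cannot be told apart from the sets. Slc17a6 alone passed without a set term (-0.63, SE 0.13, adjusted p = 0.0084), where 8.18% of all genes were called. Scaling libraries to a common median moved the median of all genes in this comparison to -0.15, against 0.16 unscaled (log2).

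The ratio of Slc17a7 to Slc17a6, a within-library measure, climbed over P1, P7 and P14 in both genotypes. In set 1 it was 2.79 and 2.20 in mG-cKO and 1.98 and 2.04 in Ctrl libraries at P1, and 5.89 and 7.14 in mG-cKO and 4.96 and 6.17 in Ctrl libraries at P7. At P14 it was 30.1 and 28.5 in mG-cKO and 24.5 and 24.2 in Ctrl libraries. At P45 in set 2 it was 33.0 and 31.9 in mG-cKO and 27.1 and 27.8 in Ctrl libraries, near the P14 values of set 1. In set 3 it was 100.9 in the mG-cKO and 86.9 in the Ctrl library at P45, and 7.17 in the mG-cKO and 5.68 in the Ctrl library at P1. The mG-cKO libraries were higher than the Ctrl libraries of their set at P1, P14 and P45 and overlapped them at P7, a description with no test. At P21 it lay between 78.1 in an mG-cKD-RTI library and 336.5 in an mG-cKO-RTI library, and the groups overlapped.

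**Figure D2:**
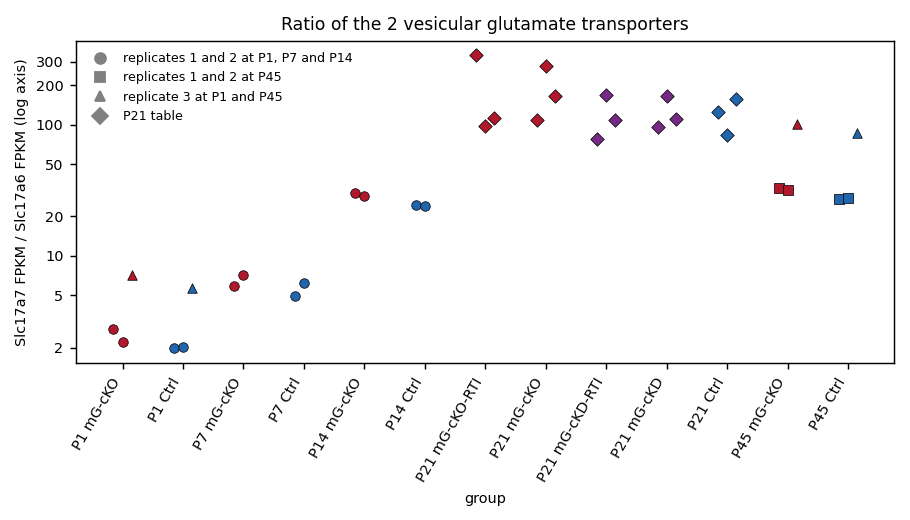
Slc17a7 FPKM over Slc17a6 FPKM (log axis) in each library, by group, with markers for the set of libraries. The ratio is 2.79 or lower in the P1 libraries of set 1 and 24.2 or higher in those of P14, and the replicates 3 lie above the others of their group at P1 and P45.

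The order of the levels differed between P1 and P14 within set 1. In Ctrl at P14, Vamp2 (285.0 FPKM, mean of 2) led, followed by Slc17a7 (246.9), Syp (192.8), Syt1 (191.5), Syn1 (183.7), Snap25 (137.8), Stx1a (135.4), Syn2 (90.5), Rims1 and Slc17a6 (10.1). Snap25 and Stx1a overlapped and the other neighbours did not. At P1 Slc17a7 was only seventh, at 21.5 FPKM, and Syp and Snap25, and Syn2 and Rims1, overlapped. The order also differed between sets at 1 age: in P1 Ctrl replicate 3, Syp (109.9 FPKM) and Snap25 (96.7) stood above Stx1a (91.3), Syt1 (78.6) and Syn1 (73.4). The P21 table was made separately, and its order is given for itself. In P21 Ctrl, Snap25 led at 832.4 ± 72.8 FPKM (SD, n = 3), ahead of Syp, Slc17a7 and Vamp2, and Slc17a6 was last at 5.36 ± 1.53 FPKM. There Syp overlapped Slc17a7, and Syn1 overlapped both Syt1 and Stx1a.

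In mG-cKO cortex at P14 every member was lower than in Ctrl, with ratios of means between 0.695 for Rims1 and 0.963 for Vamp2. Rims1 had 29.7 and 29.4 FPKM in mG-cKO and 40.8 and 44.2 FPKM in Ctrl libraries. Snap25 had 107.1 and 106.9 FPKM in mG-cKO and 136.2 and 139.4 FPKM in Ctrl libraries. Syt1 had 153.0 and 153.5 FPKM in mG-cKO and 191.3 and 191.6 FPKM in Ctrl libraries. For all 10 members both mG-cKO libraries lay below both Ctrl libraries, as they did for 28.7% of all genes. Slc17a6 had 7.25 and 7.84 FPKM in mG-cKO and 10.1 and 10.2 FPKM in Ctrl libraries, and Stx1a had 111.2 and 114.7 FPKM in mG-cKO and 132.0 and 138.8 FPKM in Ctrl libraries. The closest pair was Vamp2, with 274.3 and 274.8 FPKM in mG-cKO and 277.4 and 292.6 FPKM in Ctrl libraries.

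No member passed at P14 in limma without a set term, where 0.345% of all genes were called, and Slc17a6 alone had an unadjusted p under 0.05. In the fit with the set as a term 5 members were called lower, where 3.71% of all genes were: Rims1 (-0.51, SE 0.07, adjusted p = 0.0011), Slc17a6 (-0.38, SE 0.09, adjusted p = 0.020), Stx1a (-0.26, SE 0.06, adjusted p = 0.023), Syt1 (-0.32, SE 0.08, adjusted p = 0.025) and Snap25 (-0.36, SE 0.09, adjusted p = 0.030). All 4 P14 libraries are in set 1, so the term left the P14 differences as they were and changed only the shared estimate of the spread. Leaving out any 1 of the 4 P14 libraries, of either genotype, kept only Rims1 (adjusted p = 0.0060 to 0.019). At P7 no member passed in either fit (smallest adjusted p of 1 without the term, and 0.097 for Stx1a with it), with none at an unadjusted p under 0.05 without the term and with 0.162% and 2.16% of all genes called. The difference of the mG-cKO effect between P14 and P7, a comparison added after the values were seen, passed for no member (smallest adjusted p = 0.070, for Rims1 with the set as a term, where 0.37% of all genes were called lower, against 0.0101% in either direction without the term). At P7 both mG-cKO libraries lay above both Ctrl libraries for Syp (98.2 and 99.5 FPKM in mG-cKO, 92.6 and 81.5 FPKM in Ctrl) and below them for Syn1 and Stx1a, and 42.3% of all genes separated in either direction.

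At P45 the fusion genes Snap25 and Stx1a, the scaffold Rims1 and the vesicle gene Syn1 were lower in mG-cKO in both sets. Snap25 had 155.9 and 151.2 FPKM in mG-cKO and 206.2 and 207.7 FPKM in Ctrl libraries of set 2, and 649.2 FPKM in mG-cKO and 863.2 FPKM in Ctrl in replicate 3. The ratio was 0.74 in the first set and 0.75 in the other. Stx1a had 55.0 and 51.8 FPKM in mG-cKO and 66.0 and 67.6 FPKM in Ctrl, and 136.5 FPKM in mG-cKO and 179.9 FPKM in Ctrl in replicate 3. Rims1 had 51.3 and 50.4 FPKM in mG-cKO and 65.8 and 61.5 FPKM in Ctrl, and 68.3 FPKM in mG-cKO and 78.3 FPKM in Ctrl in replicate 3. Syn1 had 129.0 and 117.0 FPKM in mG-cKO and 142.7 and 141.3 FPKM in Ctrl, and 212.3 FPKM in mG-cKO and 270.3 FPKM in Ctrl in replicate 3. These 4 members and Vamp2, 5 in all, were lower in every mG-cKO library of a set than in every Ctrl library of that set, as were 15.6% of all genes. For Vamp2 the margin was narrow, with 184.476 and 178.4 FPKM in mG-cKO and 184.518 and 190.4 FPKM in Ctrl of set 2, and 375.8 FPKM in mG-cKO and 430.4 FPKM in Ctrl in replicate 3. Slc17a7 was the 1 member higher in that way, with 205.8, 193.2 and 562.9 FPKM in mG-cKO and 174.6, 171.4 and 526.1 FPKM in Ctrl, as were 19.5% of all genes. The other 4, Syn2, Syp, Syt1 and Slc17a6, gave mean ratios between 0.92 and 1.05 in both sets.

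Without a set term or a block no member passed at P45, none had an unadjusted p under 0.05 and 1.16% of all genes were called. With the set as a term Stx1a (-0.34, SE 0.05, adjusted p = 0.00033), Snap25 (-0.42, SE 0.07, adjusted p = 0.0013), Rims1 (-0.28, SE 0.06, adjusted p = 0.0060) and Syn1 (-0.25, SE 0.06, adjusted p = 0.012) were called lower, where 6.66% of all genes were. With the replicate number as a block the same 4 were called lower (adjusted p = 0.0022, 0.011, 0.024 and 0.030, in that order), where 5.51% of all genes were. Leaving out 1 of the 6 libraries with the set as a term kept Snap25, Stx1a and Rims1 each time, and kept Syn1 in 3 of 6 fits (adjusted p = 0.0075 to 0.095).

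At P1 the called differences were upward in mG-cKO. Slc17a7 had 29.0, 24.1 and 64.6 FPKM in mG-cKO and 20.98, 21.96 and 46.9 FPKM in Ctrl, and Syp had 46.5, 47.8 and 143.3 FPKM in mG-cKO and 39.4, 44.1 and 109.9 FPKM in Ctrl, each in replicate order. Without a set term 0 members passed and 0 had an unadjusted p under 0.05, with 0.142% of all genes called. Slc17a7 (0.34, SE 0.07, adjusted p = 0.033) and Syp (0.24, SE 0.05, adjusted p = 0.041) passed with the set as a term, where 1.08% of all genes were called higher. With the replicate number as a block neither passed (adjusted p = 0.088 for Slc17a7 and 0.078 for Syp), where 0.512% of all genes were called higher. Leaving out 1 library left between 0 and 2 members called. In mG-cKO 1 of 3 libraries at P1 had Xist above Ddx3y, and in Ctrl 2 of 3 did. Its part in the result was not tested.

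The change of the mG-cKO effect between P45 and P1 was tested as a difference of differences. Without a set term no member passed, with none at an unadjusted p under 0.05 and 0.36% of all genes called. With the set as a term Snap25 (-0.45, SE 0.10, adjusted p = 0.019), Rims1 (-0.36, SE 0.08, adjusted p = 0.019) and Stx1a (-0.31, SE 0.07, adjusted p = 0.015) passed, where 3.24% of all genes were called lower. With the block only Stx1a did (adjusted p = 0.038), where 2.5% of all genes were called lower. Leaving out 1 library with the set as a term left 0 to 5 members called.

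**Figure D3:**
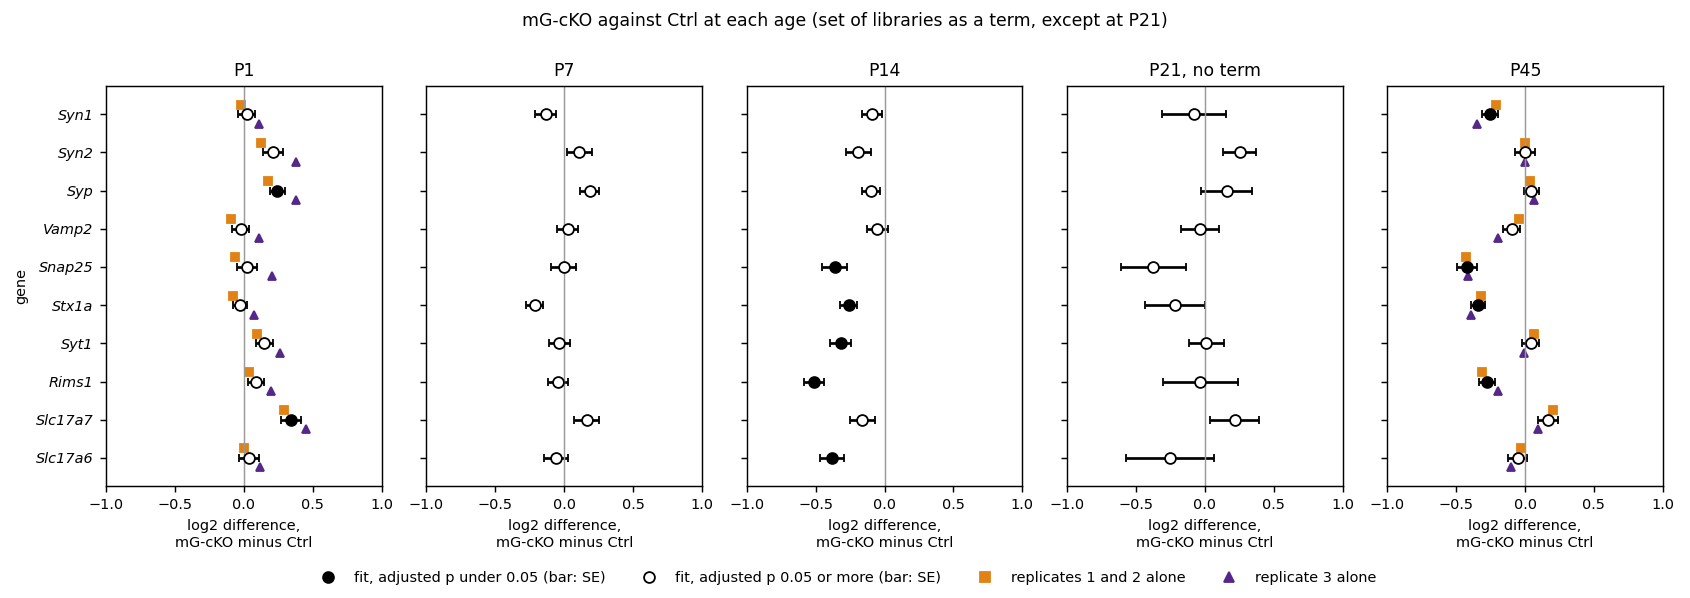
Log2 difference of mG-cKO minus Ctrl for each gene at each age (points, with the SE as bars, filled where the adjusted p is under 0.05), from the fit with the set as a term, and without a term at P21. At P1 and P45 squares give replicates 1 and 2 and triangles replicate 3, and at P45 both lie left of 0 for Syn1, Vamp2, Snap25, Stx1a, Rims1 and Slc17a6.

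Markers of neurons and of other cell types differed too, some of them at ages where no member was called lower. In P45 mG-cKO the 10 oligodendrocyte genes summed to 135.5 to 155.1 FPKM in set 2, against 604.3 to 810.5 FPKM in Ctrl, and all 10 were called lower with the set as a term. At P14 they summed to 210.1 and 235.8 FPKM in mG-cKO and 744.0 and 837.5 FPKM in Ctrl libraries. The 12 genes of neuron cell bodies and cytoskeleton summed to 1162 and 1189 FPKM in mG-cKO and 1260 and 1293 FPKM in Ctrl at P14, and 4 of 12 were called lower. At P45 these 12 summed to 899 and 901 FPKM in mG-cKO and 935 and 974 FPKM in Ctrl of set 2. In replicate 3 at P45 they summed to 2363 FPKM in mG-cKO and 2481 FPKM in Ctrl. The 7 cortical excitatory neuron genes summed to 997 and 1022 FPKM in mG-cKO and 1274 and 1305 FPKM in Ctrl at P14. At P45 they summed to 669 and 709 FPKM in mG-cKO and 799 and 815 FPKM in Ctrl of set 2. For replicate 3 at P45 the sums were 1674 FPKM in mG-cKO and 2172 FPKM in Ctrl. Of these 7 genes 3 were called lower at P1, 3 at P7, 4 at P14 and 3 at P45. The share of all genes called lower was 0.745% at P1, 0.938% at P7, 3.71% at P14 and 6.66% at P45. No marker of these 3 lists was at 0 in every library of a group at P14 or P45. Fewer cells of a type and less RNA per cell cannot be told apart in bulk tissue, and the part of these markers in the members' differences was not tested. The 7 thalamus genes summed to 9.1 and 10.1 FPKM in mG-cKO and 7.4 and 7.5 FPKM in Ctrl at P14. Of the 5 that were tested 2 were lower, none was called, and their part in the Slc17a6 difference was not tested. The 7 striatum genes summed to 164.6 to 243.4 FPKM in mG-cKO and 112.1 to 157.0 FPKM in Ctrl at P14. All 7 were higher in mG-cKO there (median log2 difference 0.74) and at P7 (0.37), and none was called.

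The other presynaptic genes were taken from a list of 47. At P14 with the set as a term 15 of 47 were called lower and 0 higher in mG-cKO, where 3.71% of all genes were called lower, with a median log2 difference of -0.19 against -0.01 for all genes. The strongest were Bsn, which encodes the active zone scaffold bassoon (-0.34, SE 0.05, adjusted p = 0.0012), and Cplx1, a complexin that clamps and primes SNAREs (-0.39, SE 0.06, adjusted p = 0.0017). At P45 15 of 47 were called lower, where 6.66% of all genes were, and 5 higher, with a median of -0.08 against 0.01 for all genes. Cplx1 (-0.55, SE 0.05) and Vamp1, a relative of Vamp2 (-0.66, SE 0.07), led those called lower, and Atp6v0a1, a subunit of the vesicle proton pump (0.15, SE 0.03), and Doc2b, a calcium sensor (0.35, SE 0.08), led those called higher. At P1 3 of 47 were called higher, where 1.08% of all genes were, led by Nsf, which takes SNARE complexes apart (0.27, SE 0.06), and Amph (0.22, SE 0.05), and at P7 3 were called lower, where 0.938% of all genes were, led by Ppfia3 and Doc2a. Without the term 1 of 47 passed at P45, Syt2, a relative of Syt1 (-0.998, SE 0.18, adjusted p = 0.010), where 1.16% of all genes were called. In Ctrl with the term 34 of 47 were higher at P7 than at P1 and 0 lower, and 35 were higher and 7 lower at P14 than at P7, where 41.3% and 43.6% of all genes were called in either direction. The genes leading in those steps were Syngr1, Atp6v0a1 and Cacnb4 upward, and Rims3 and Syn3 downward at P14.

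At P21 none of the members passed in any of the 7 comparisons. The libraries of this table differed among themselves: Syn1 was at 290.7, 251.0 and 277.5 FPKM in replicate 3 of mG-cKO, mG-cKD and Ctrl, against 167.3 to 195.0 FPKM in the other 6 untreated libraries. Leaving out those 3 libraries changed no member's call, and leaving out replicate 1 of both RTI groups changed 1, that of Snap25 in mG-cKO-RTI against Ctrl. Xist exceeded Ddx3y in 2 of 3 libraries of mG-cKO-RTI, of mG-cKD and of mG-cKD-RTI, and in 0 of 3 of mG-cKO and of Ctrl. Sex by these transcripts thus differed between the groups of every pair compared at P21 other than mG-cKO against Ctrl and mG-cKD-RTI against mG-cKD, and its part in the results was not tested.

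**Figure D4:**
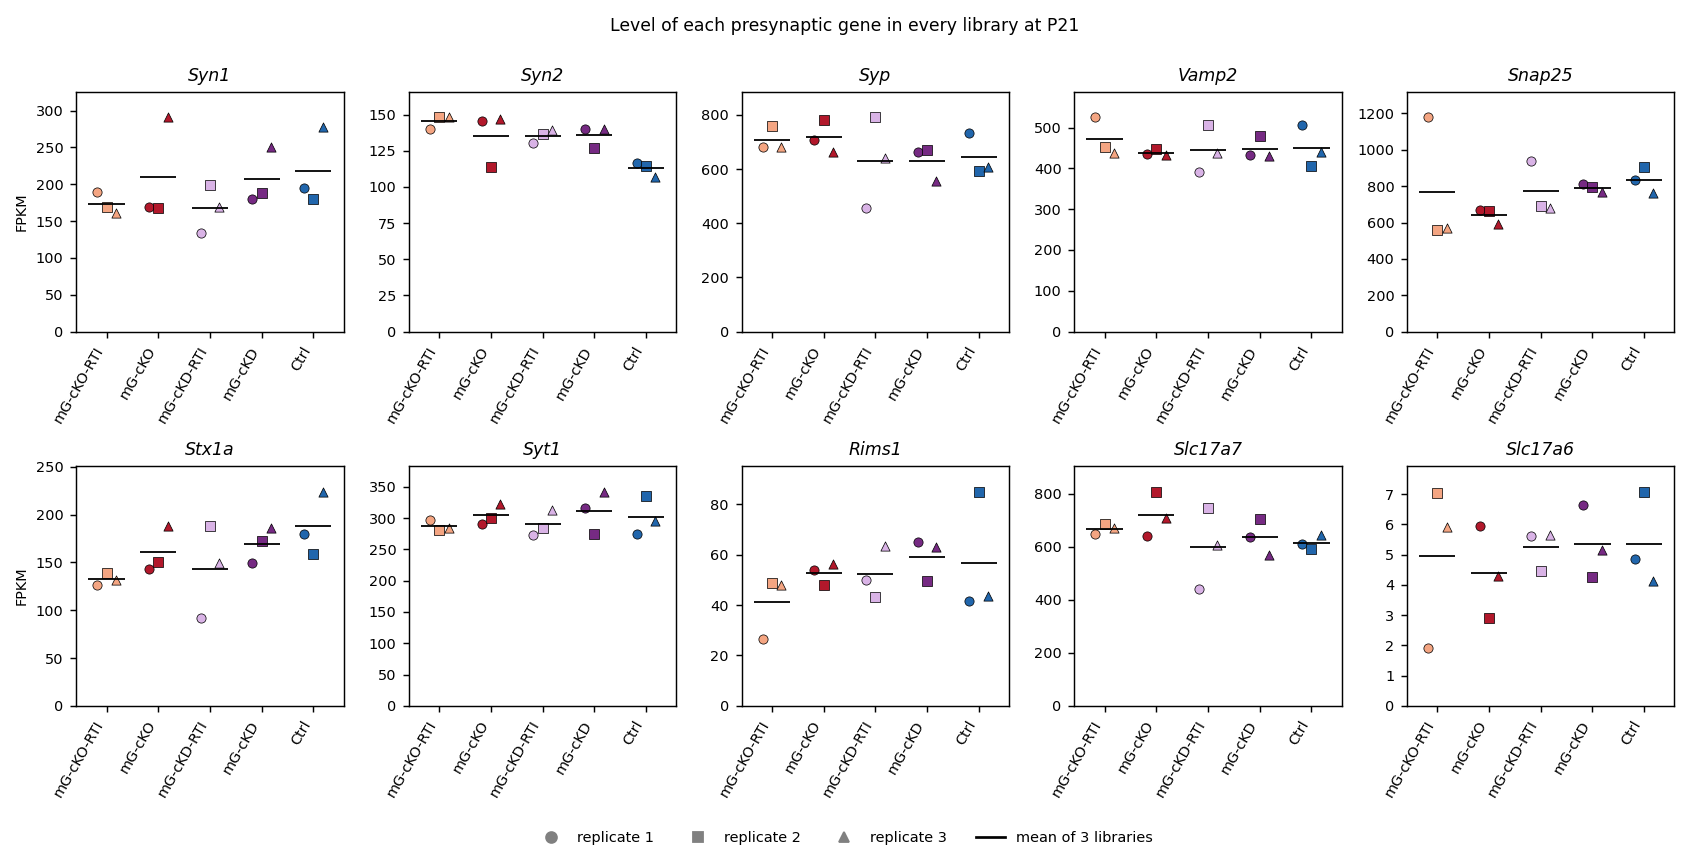
FPKM of each gene in every P21 library, with the group mean as a line and the replicate as the marker. Snap25 is lower in all 3 mG-cKO libraries than in all mG-cKD and Ctrl libraries, and the 3 untreated replicates 3 hold the highest Syn1 values.

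Snap25 was lower in the untreated mG-cKO libraries at P21, in differences that did not pass. It had 671.5, 662.4 and 591.2 FPKM in mG-cKO, 810.8, 792.7 and 770.0 FPKM in mG-cKD, and 832.0, 905.4 and 759.8 FPKM in Ctrl. The mG-cKO libraries lay below all libraries of both other untreated groups, as 4.69% of all genes did against Ctrl and 4.49% against mG-cKD. The share of all genes below both groups at once is not given, and mG-cKD and Ctrl overlapped. The log2 difference from Ctrl was -0.37 (SE 0.24, adjusted p = 0.71) and from mG-cKD -0.30 (SE 0.24, unadjusted p = 0.22), so neither passed. No other member separated mG-cKO from Ctrl. Syn2 had 145.7, 113.6 and 146.8 FPKM in mG-cKO, and 140.2, 126.6 and 140.0 FPKM in mG-cKD, against 116.7, 114.5 and 107.1 FPKM in Ctrl. The mG-cKD libraries all lay above the Ctrl libraries, with a log2 difference of 0.26 (SE 0.12, adjusted p of 1 and unadjusted p = 0.048). Of all genes 2.56% separated upward in that way. Over all genes 2.19% were called in mG-cKO against Ctrl, 1.53% in mG-cKO against mG-cKD and 0% in mG-cKD against Ctrl. The count of members at an unadjusted p under 0.05 was 0, 0 and 1, in the same order.

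RTI, a treatment the labels do not spell out, gave no call among the members in mG-cKO or mG-cKD, or in the difference of its effects between them, and 0.00609%, 0% and 0% of all genes were called. None of the members had an unadjusted p under 0.05 in these 3 comparisons. Snap25 in mG-cKO-RTI was at 1178.6, 560.3 and 571.8 FPKM, against 671.5, 662.4 and 591.2 FPKM in untreated mG-cKO. Replicate 1 thus stood far above and the other 2 libraries below every untreated one. The same mG-cKO-RTI replicate 1 held the lowest Slc17a6 (1.93 FPKM) and Rims1 (26.6 FPKM) of the table. In mG-cKD-RTI replicate 1 held the lowest Stx1a (92.4 FPKM), Syp (456.0 FPKM) and Slc17a7 (439.5 FPKM) of the table. Stx1a was at 126.9, 138.9 and 131.4 FPKM in mG-cKO-RTI and 142.9, 150.8 and 188.1 FPKM in untreated mG-cKO, with a log2 difference of -0.27 (SE 0.22, adjusted p = 0.96). The mG-cKO-RTI libraries all lay below, as they did for 5.19% of all genes.

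Against Ctrl, mG-cKO-RTI gave no call, where 2.30% of all genes were called, and Syn2 and Stx1a had an unadjusted p under 0.05. Syn2 had 140.2, 148.0 and 148.0 FPKM in mG-cKO-RTI and 116.7, 114.5 and 107.1 FPKM in Ctrl (0.36, SE 0.12, adjusted p = 0.17). Of all genes 11.5% separated upward in this comparison, as Syn2 and Slc17a7 did, and 5.97% downward, as Stx1a did. Stx1a had a mean of 132.4 ± 6.06 FPKM in mG-cKO-RTI and 187.7 ± 33.2 FPKM in Ctrl (SD, n = 3 each), a log2 difference of -0.49 (SE 0.22, adjusted p = 0.34). With replicate 1 of both RTI groups left out, an alternative chosen after the values were seen, Snap25 was called lower in mG-cKO-RTI (-0.55, SE 0.12, adjusted p = 0.029). Of the other presynaptic genes 1 of 47 passed in mG-cKO against Ctrl at P21, Vamp1 (-0.85, SE 0.20, adjusted p = 0.039), where 2.19% of all genes were called. In mG-cKO-RTI against Ctrl 1 of 47 passed, Syt2 (-0.80, SE 0.17, adjusted p = 0.023), where 2.30% of all genes were called. Both counts are near the share over all genes. The oligodendrocyte genes summed to 437 to 764 FPKM in mG-cKO-RTI, 313 to 488 FPKM in mG-cKO, and 2871 to 4414 FPKM in Ctrl.

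The genes most like the members over the 20 libraries of the age table were Panx2, Tmem151a, Thy1, Paqr7 and Tpi1 (Pearson r of log2 levels with the members' mean of 0.98 to 0.99). These libraries share sets and ages, so the values are a description. Slc17a6 itself correlated at -0.48 with that mean, and the other 9 members at 0.78 (Stx1a) to 0.98 (Syn2). Each member is part of that mean, so these correlations are partly built in. Most like Slc17a6 were Kif3b, Slc22a23 and Klhl23 (r = 0.94 to 0.96), and most like Slc17a7 were Sirpa, Pld3 and Ptprn (r = 0.99). Over the 12 libraries of set 1 alone other genes led, Actr3b first among them, and only Sirpa stayed among the 3 most like Slc17a7.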

How the data were processed

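Cortex RNA was sequenced from libraries that the labels describe as total RNA made with an NEB Next Ultra kit. The authors deposited FPKM values per gene, made with featureCounts 2.0.4, STAR 2.5.3a and Trim Galore 0.6.5 among the tools, and with mm10 as the build, per the submitters' processing notes. Of 48 samples listed, 41 have a column in the 3 tables used. The tables were read separately, since each was deposited as its own FPKM table and levels across them are not comparable.

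From these FPKM values log2(FPKM + 1) was tested with limma 3.58.1 in R 4.3.3 (trend, robust) over genes whose mean across a table reached 0.5 FPKM, which left 19733 genes in the age table and 16420 at P21, and all 10 members in both. Fold changes are on the log2(FPKM + 1) scale. P-values were adjusted by Benjamini-Hochberg over all genes tested, with a threshold of 0.05. Groups of a table shared 1 estimate of the spread, and the script was tested on simulated data.

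A value counted as a whole read where it lay within 0.05 of a whole number. The set of libraries as a term, the leave-out fits with it, and the fits for the doubtful P21 libraries were added after the data were seen. Same-numbered libraries deviated together at P1 (correlations of 0.78, 0.71 and 0.94), at P45 (0.87, 0.89 and 0.97), between P45 and P1, and at P21 for mG-cKO against Ctrl (0.16, 0.13 and 0.70) and against mG-cKD (0.52, 0.33 and 0.69). Some libraries correlated best with another number: mG-cKO replicate 2 at P1, replicate 1 at P45, and replicates 1 and 2 against Ctrl at P21. Between P45 and P1 so did P45 Ctrl replicate 2 and P45 mG-cKO replicate 1. Group means at P1 and P45 span 2 sets, so the set enters these deviations. The numbers come from the labels, which do not say what they share.

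Every member was tested in each comparison of the age table and of the P21 table, and values are printed for only some of them. Of the other presynaptic genes, the called genes with the smallest adjusted p were named, up to 2 in each direction, and likeness was ranked among genes averaging 5 FPKM or more. The members and lists were chosen with earlier results of these data known. A table of cultured cells was not used here.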

Additional observations from a re-analysis of the deposited data

Results flagged for a closer look

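With the set of libraries as a term, the test of the difference itself called the mG-cKO effect different between P45 and P1 for 3 fusion and active zone genes, a call that other fits did not keep for each of them. The log2 difference was -0.45 (SE 0.10) for Snap25, -0.36 (SE 0.08) for Rims1 and -0.31 (SE 0.07) for Stx1a, with adjusted p = 0.019, 0.019 and 0.015 in limma, where 3.24% of all genes were called lower. With the replicate number as a block at both ages, only Stx1a passed (adjusted p = 0.067 for Snap25, 0.059 for Rims1 and 0.038 for Stx1a). Leaving out 1 of the 12 libraries with the set as a term kept each gene's call in 8 of 12 fits, with the largest adjusted p at 0.084 for Snap25 and 0.086 for Rims1, both without P1 Ctrl replicate 3, and at 0.074 for Stx1a without P1 mG-cKO replicate 3. In replicate order, Snap25 was at 155.9, 151.2 and 649.2 FPKM in mG-cKO and 206.2, 207.7 and 863.2 FPKM in Ctrl at P45, and at 42.4, 35.4 and 111.3 FPKM in mG-cKO and 37.1, 44.2 and 96.7 FPKM in Ctrl at P1. Without the term the SE was 0.90 for Snap25, 0.28 for Rims1 and 0.57 for Stx1a, and none passed. With only the libraries in whole reads the differences were -0.37, -0.35 and -0.24 in the same order, and none passed (adjusted p = 0.14, 0.085 and 0.15).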

How the results depend on the processing

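Counts are members called out of 10, against the fit without a term. The share of all genes called changed with the fit too. For P7 against P1 it was 6.24% without a term and 41.3% with the set as a term. That share is not given for several of the fits below, whole-read libraries among them. The counts therefore describe how calls depend on the fit, and not a trait of the members. With the set of libraries as a term 2 were called at P1 (0 without), 5 at P14 (0), 4 at P45 (0), 10 for P7 against P1 (0), 10 for P14 against P7 (0), 4 for P45 against P14 (1) and 3 for the difference of the mG-cKO effect, P45 minus P1 (0), and scaling to a common median as well gave the same counts. With the replicate number as a block 0 were called at P1, 3 at P14, 4 at P45, 10 for P7 against P1, 8 for P14 against P7, 7 for P45 against P14 and 1 for the P45 minus P1 difference. Of these, same-numbered libraries deviated together only at P1, at P45 and between P45 and P1, and there not every library correlated best with its own number. At P7 and P14 the same-numbered libraries share only a number (correlations of 0.014 and 0.070). The block changed no member's call at P21. With whole-read libraries only 5 were called at P14, 3 at P45, 10 for P7 against P1, 10 for P14 against P7 and 9 for P45 against P14. With only the groups compared in the fit 6 were called at P14, 9 for P14 against P7, 0 for P45 against P14 and 4 for P45 against P1 in mG-cKO (7 in the fit of all groups). Scaling alone gave 1 for P7 against P1 and 1 for P14 against P7. Without replicate 1 of both RTI groups 1 was called in mG-cKO-RTI against Ctrl (0 with it). Slc17a7 in P45 against P14 was -0.43 with the block and -0.51 in whole-read libraries, against 0.02 without a term.

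Leaving out 1 library at a time without a term gave 0 to 1 for P45 against P14, 7 for P45 against P1 in Ctrl, 6 to 7 in mG-cKO and 0 in all other comparisons. With the set as a term it gave 0 to 2 at P1, 0 to 1 at P7, 1 at P14, 3 to 4 at P45, 9 to 10 for P7 against P1, 10 for P14 against P7, 1 to 4 for P45 against P14, 10 for P45 against P1 in either genotype, 0 to 5 for P45 minus P1 and 0 to 2 for P14 minus P7. The causes were not tested. A pseudocount of 0.1 and no filter kept each count within 1.5 times. Of 3240 member values under an alternative, 266 uncalled ones changed sign. VPA against CT was not run for members, which have no row there. The depth of replicate 3 and of the P21 libraries is unknown.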
